A study of Mus musculus with 4 samples.

Results

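Genes for Wnt ligands, their cell-surface receptors and their secreted antagonists were examined for TEAD1 peaks in cardiac fibroblasts of newborn mice. The 42 members were taken by name from 21900 protein-coding genes of the RefSeq gene table (GRCm38.p6). They were 18 Wnt ligands, 10 Frizzled receptors, 5 other receptors and 9 secreted antagonists. Wnt4 was not among them. A peak was counted for a gene when its summit lay inside the annotated span or within 50 kb of either end. TEAD1-bound DNA was recovered by ChIP-seq (sequencing of immunoprecipitated chromatin) from cells overexpressing TEAD1 (OE-TEAD1) and from cells with the negative control construct (OE-NC). Each had its own input, chromatin set aside before the immunoprecipitation, so 4 groups held 1 library each. No source used here names the vector, its promoter or the antibody. The data were 2 peak lists called against input, which the labels do not tie to a condition. They are called list 1 and list 2, no effect of overexpression is given, and without replicates no difference between the lists was tested.

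Wnt proteins are secreted lipid-modified ligands. They bind Frizzled receptors, with Lrp5 or Lrp6 as co-receptors when the signal runs through beta-catenin, and with Ror1, Ror2 or Ryk in signalling that does not need beta-catenin. Secreted frizzled-related proteins and Wif1 bind the ligands themselves, while Dickkopf proteins of the Dkk1 kind bind Lrp5 and Lrp6. TEAD1 binds DNA and takes the Hippo pathway coactivators YAP and TAZ to its targets. Wnt and Hippo signalling are both known in cardiac fibroblasts after injury.

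Sequences of the start regions (promoter windows, 250 bases before to 50 after a transcription start, RefSeq, GRCm38.p6) were listed for 29 of the 42 members, in 32 windows. They are shown because no peak reached any of them. Both strands were searched for the TEAD core, the letters GGAATG or their reverse complement CATTCC, which do not overlap each other. The core stood in 1 of the 32 member windows (3.12%), in 13.6% of the 21263 windows of protein-coding genes and in 14.7% of all 32851 windows. A match is a description of letters and not a binding site. The window with the core belongs to 1 of 3 listed starts of Wnt5b, on the minus strand, and the core is in capitals, beginning 13 bases after the start. The Wnt3a window, also on the minus strand, is shown because its start lay closest to a site called in both lists, 3.35 kb away. It holds no core.
Wnt5b, chr6:119467162-119467461: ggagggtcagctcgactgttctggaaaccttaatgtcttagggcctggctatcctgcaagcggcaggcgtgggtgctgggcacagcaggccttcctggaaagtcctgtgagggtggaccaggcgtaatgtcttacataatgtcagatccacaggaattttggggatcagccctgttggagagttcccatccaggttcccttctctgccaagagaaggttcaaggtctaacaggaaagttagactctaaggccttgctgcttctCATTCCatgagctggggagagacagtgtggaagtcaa
Wnt3a, chr11:59290702-59291001: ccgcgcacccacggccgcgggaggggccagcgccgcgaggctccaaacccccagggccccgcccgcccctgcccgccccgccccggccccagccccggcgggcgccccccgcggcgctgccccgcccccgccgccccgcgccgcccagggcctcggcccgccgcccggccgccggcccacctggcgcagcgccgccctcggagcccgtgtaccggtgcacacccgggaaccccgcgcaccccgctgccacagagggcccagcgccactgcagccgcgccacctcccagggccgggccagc
The Wnt5b window had a GC content of 53.0% and the Wnt3a window one of 86.3%. The nearest summit to the Wnt5b start shown lay 10.8 kb upstream of it in both lists.

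No peak of either list overlapped a member window. That is 0 of 32 windows, which allows a share of up to 9.38%. Other protein-coding windows (21231) were overlapped in 1.67% of cases by list 1 and 1.52% by list 2, so a count of 0 is near the background. No summit lay within 1 kb of a listed member start either, against 4.22% and 3.82% of the other windows. The sites described here were thus all away from the listed starts. The 13 members without a listed start could not be checked in this way. Among them was Fzd2, with a list 1 summit 0.272 kb below its span. Of 56 pairings of a member with a site for which a start was listed, 25 lay upstream of the gene span, 20 downstream and 11 inside it.

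Within 50 kb, peaks were found near somewhat more of these genes than of other genes. Against genes of their length the average share was close in list 2, with gaps in both directions by span. The mean number of summits was lower in both lists. In list 1, 29 of 42 members (69.0%) had a summit, beside 57.5% of 21858 other protein-coding genes. In list 2, 27 members (64.3%) had one, beside 58.2%. The members' median span was 24.8 kb, against 17.1 kb for the others. Among other genes with spans within 1.5 times the member's, averaged over members, 61.8% had a summit in list 1 and 62.3% in list 2. The mean number of summits per gene was 1.64 in members and 1.71 in these genes of like span in list 1, and 1.45 and 1.67 in list 2. By span, the 15 members below 10 kb stood at 73.3% and 66.7% in lists 1 and 2, against 44.1% and 45.0% of other genes. The 7 of 10 to 30 kb stood at 85.7% in each, against 59.7% and 60.3%. The 15 of 30 to 100 kb stood at 53.3% in each, against 67.7% and 68.0%. The 5 of at least 100 kb stood at 80.0% and 60.0%, against 73.8% and 75.5%. A summit was found in both lists for 24 members (57.1%), against 51.6% of other genes and 55.5% of genes of like span. With a window of 100 kb the gap was wider, with 83.3% of members against 70.0% of other genes and 74.6% of genes of like span in list 1, and 85.7% against 71.1% and 75.5% in list 2. With the gene span alone members were below both, with 19.0% against 20.5% and 22.9% in list 1, and 16.7% against 20.5% and 22.7% in list 2. No share was tested, since the members were chosen with earlier results known.

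By role, ligands had summits in 13 of 18 cases in list 1 and 14 of 18 in list 2, against 62.1% and 62.5% of genes of like span. Frizzled genes had them in 7 and 5 of 10, against 55.1% and 55.5%. The other receptors had 4 and 3 of 5, against 74.2% and 74.8%. Antagonists had 5 of 9 in each list, against 62.0% and 62.6%. Ligands were above their background in both lists, at 72.2% and 77.8%, and Frizzled genes in list 1, at 70.0%. The ligand counts are not independent, since neighbouring Wnt genes shared sites. For antagonists, the other receptors and Frizzled genes in list 2 the gap was one that 1 gene would close. With 5 to 18 genes in a class, 1 gene more or less moves these shares widely.

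**Figure D1:**
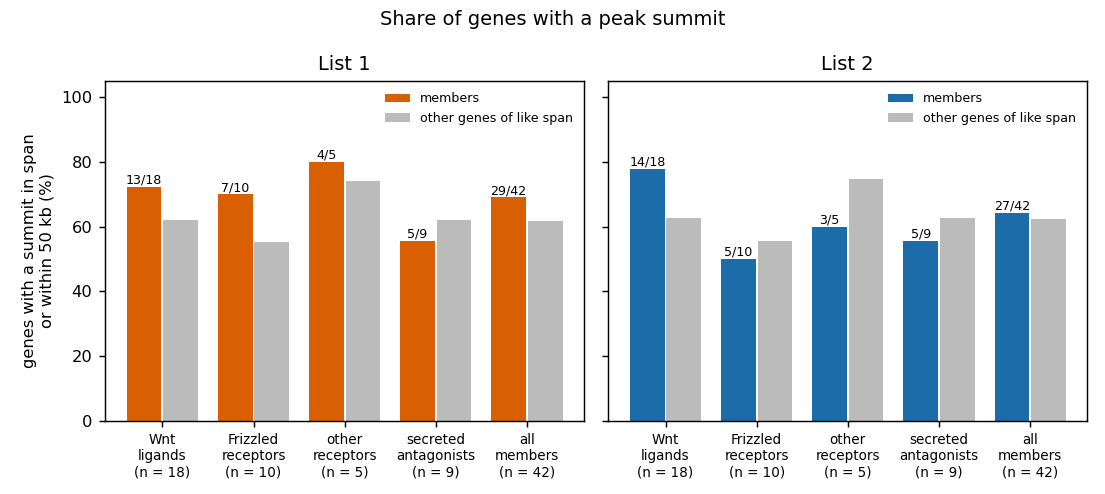
Percentage of genes with a summit in the span or within 50 kb, by class, for list 1 (left) and list 2 (right). Coloured bars are the members with their counts above, and grey bars other protein-coding genes of like span; over all members the bars stand at 69.0% and 61.8% in list 1 and at 64.3% and 62.3% in list 2.

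Because Wnt genes lie in neighbouring pairs, windows overlapped and some peaks were counted for 2 members. The windows held 63 distinct peaks of list 1 and 57 of list 2, which made 80 distinct sites. Of these 39 were called in both lists, 24 in list 1 only and 17 in list 2 only. There were 7 sites counted for 2 members each. They lay at Wnt1 with Wnt10b (4 sites), Wnt6 with Wnt10a (2 sites) and Wnt3a with Wnt9a (1 site), and those counts are not independent. A member was the nearest protein-coding gene at 52 of the 80 sites. Over all pairings of a gene with a summit in its window, the gene was nearest in 56.5% for members and 49.1% for other genes in list 1, and in 62.3% and 49.3% in list 2.

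The strength of a site is given as fold over input. The fold is the authors' ratio of ChIP pileup at the summit over a background from input, read here as having 1 added to both. Fragments divided by background therefore give a higher number than the fold. At many sites this background stood at the lowest value of its list, 1.72 fragments in list 1 or 1.87 in list 2. The 95% interval of a fold here covers counting error of the ChIP fragments only.

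**Figure D2:**
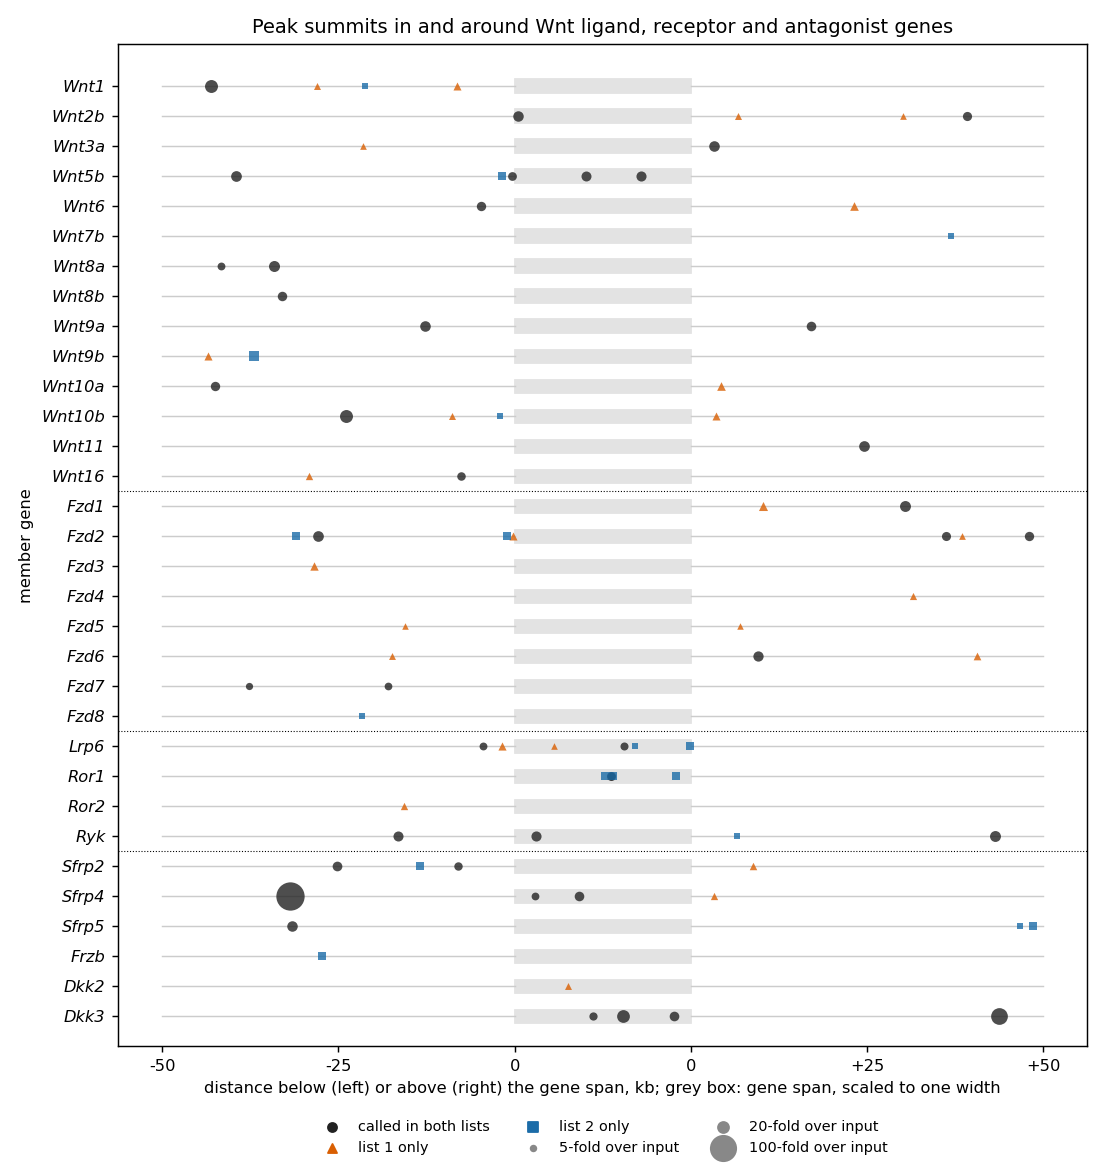
Summits in and around the 32 members that had one, with distance from the gene span in kb on the x axis, the span drawn as a grey box of 1 fixed width and marker area growing with the higher fold over input. The large marker at Sfrp4 is a site of 60.4-fold in list 1 and 108.9-fold in list 2 that lies nearer to another gene, and markers inside a span occur only for Wnt2b, Wnt5b, Lrp6, Ror1, Ryk, Sfrp4, Dkk2 and Dkk3.

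Among the ligands the highest folds lay beside genes that are not Wnt genes. One site on chromosome 15, at 98746372 to 98747132 in list 1, was 20.7-fold over input in list 1 (16.1 to 26.2) and 17.4-fold in list 2 (13.6 to 22.1), with 67 fragments in each. It was counted for both Wnt1 and Wnt10b, 43.1 and 23.9 kb away, but lay inside Arf3, which encodes a small GTPase of the secretory pathway. Closer to Wnt10b only weak single-list peaks were called. Their folds were 6.24 at 3.52 kb and 4.08 at 8.83 kb in list 1, and 2.79 at 2.03 kb in list 2.

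Wnt5b, a ligand of beta-catenin-independent signalling, had 4 summits in list 1, as many as Wnt2b, and 5 in list 2, the most of any ligand there. Inside its span a site on chromosome 6 at 119477738 to 119478248 was 10.5-fold in list 1 (7.17 to 14.8) and 11.2-fold in list 2 (7.70 to 15.7). A second one, at 119512633 to 119513343, was 6.24-fold and 11.5-fold. The folds of the first were alike in the lists, and at the second list 2 was higher with overlapping intervals (3.73 to 9.91 and 7.99 to 16.1). Another site lay 0.358 kb below the span, where the minus-strand gene ends, with 3.16-fold in list 1 and 8.03-fold in list 2. The strongest Wnt5b site, 13.4-fold and 13.3-fold, lay 39.5 kb away inside Adipor2, an adiponectin receptor gene.

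Wnt8a had 2 shared sites, both inside Fam13b. The stronger was 10.3-fold in list 1 (6.90 to 14.8) and 14.2-fold in list 2 (10.5 to 18.7), 34.2 kb from Wnt8a. Wnt2b had a shared site in its span, 16.6 kb from its start and also inside St7l, of 9.74-fold and 12.6-fold. Wnt3a and Wnt9a, which run in opposite directions, shared a site upstream of both that was 8.45-fold and 12.9-fold, 3.35 kb from Wnt3a and 12.7 kb from Wnt9a. This was the shared site closest to a listed start of any member. The other ligands with a shared site were Wnt6, Wnt8b, Wnt10a, Wnt11 and Wnt16, with folds of 5.74 to 13.3. For Wnt6 and Wnt10a it was the same site, with Prkag3 nearer, and at the Wnt11 site Uvrag was nearer. Wnt9b had a summit in each list but at different sites, of 6.36-fold in list 1 and 9.07-fold in list 2, both inside Gosr2, and Wnt7b had 1 of 3.54-fold in list 2. Wnt2, Wnt3, Wnt5a and Wnt7a had none in either list.

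The Frizzled genes are mostly short, with a median span of 4.59 kb, and none had a summit inside its span. Fzd2 had 5 summits in each list, at 7 sites of which 3 were shared. Of 2399 genes of like span 2.33% had more summits in list 1 and 2.50% in list 2. Its strongest site, on chromosome 11 at 102576246 to 102576832, was 13.2-fold in list 1 (9.34 to 18.1) and 13.3-fold in list 2 (9.44 to 18.1). That site lay 27.9 kb from Fzd2 and 20.1 kb from Gpatch8, so Gpatch8 was nearer. Next to the lower end of Fzd2 each list had 1 peak, at 0.272 kb in list 1 (6.24-fold) and at 1.09 kb in list 2 (6.40-fold), and these did not overlap. At every other site in its window another gene was nearer than Fzd2.

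Fzd1 had its strongest site 30.4 kb upstream, 13.2-fold in list 1 (9.32 to 18.2) and 13.96-fold in list 2 (10.03 to 18.95), with Cdk14 nearer at 14.8 kb. At Fzd6 the shared site lay 9.56 kb above the span with Fzd6 itself as nearest gene. It was 11.8-fold in list 1 (8.48 to 15.9) and 12.0-fold in list 2 (8.89 to 15.9). Fzd6 was the only Frizzled gene with a shared site of at least 10-fold in both lists at which it was the nearest gene. Fzd7 had 2 weak shared sites upstream, and the stronger was 4.45-fold (2.73 to 6.89) and 5.58-fold (3.28 to 8.98). Fzd3, Fzd4 and Fzd5 had summits in list 1 alone, of 3.16-fold to 7.06-fold, and Fzd8 1 of 4.08-fold in list 2 alone. Fzd9 and Fzd10 had none, and the nearest summits lay 261 and 563 kb from their starts.

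Among the other receptors Ryk, a kinase-like receptor without kinase activity, carried the strongest sites. A site 16.6 kb upstream was 11.4-fold in list 1 (7.80 to 16.1) and 10.1-fold in list 2 (6.84 to 14.5). A second one inside the gene, 8.73 kb from the start, was 8.45-fold and 11.6-fold, and list 2 had another peak of 5.23-fold under the same wide peak of list 1. The third shared site lay 43.1 kb above the span with 13.95-fold and 8.03-fold. List 2 alone had a weak peak of 3.49-fold 6.57 kb above the span. At each of these sites Ryk was the nearest protein-coding gene, and the intervals of the lists overlapped at all 3 shared sites.

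Lrp6, the co-receptor of the beta-catenin branch, had 4 summits in each list and only weak ones. Its strongest shared site, inside the span, was 5.88-fold in list 1 (3.45 to 9.45) and 6.28-fold in list 2 (3.804 to 9.846). Lrp5, its relative, had none, although 74.1% and 74.5% of genes of like span had one. Ror1, a receptor of Wnt5a, had 3 summits in list 1 and 5 in list 2, all inside its span of 349 kb and between 178 and 320 kb from its start. Its strongest shared site was 3.50-fold in list 1 (2.12 to 5.48) and 8.71-fold in list 2 (5.97 to 12.3), from 17 and 30 fragments over local backgrounds of 4.15 and 2.56 fragments. Ror2 had 1 peak of 4.77-fold in list 1, 15.7 kb from its span.

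The strongest peaks of all lay in the windows of antagonist genes. At Sfrp4, a secreted frizzled-related protein, a site on chromosome 13 at 19590726 to 19591778 in list 1 was 60.4-fold over input in list 1 (52.7 to 69.0) and 108.9-fold in list 2 (97.1 to 121.6), from 216 and 311 fragments. The intervals did not overlap, but they leave out the backgrounds, which were 2.59 fragments in list 1 and 1.87 in list 2. The site lay 31.9 kb from Sfrp4 and 0.449 kb beyond the 3′ end of Epdr1, a gene for an ependymin-related protein that runs on the minus strand between the site and Sfrp4. Inside the Sfrp4 span itself 2 shared sites were far weaker. The stronger of them, at 19626341 to 19626908, was 8.45-fold in list 1 (5.43 to 12.6) and 10.1-fold in list 2 (6.84 to 14.5), and the other 5.74-fold and 3.78-fold.

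Dkk3, a divergent Dickkopf protein, had 4 summits in each list, and all 4 sites were shared. Inside the span the strongest, on chromosome 7 at 112142474 to 112143106, was 17.6-fold in list 1 (13.2 to 22.9) and 19.98-fold in list 2 (16.2 to 24.5), from 53 and 92 fragments. This was the strongest site of any member at which the member was the nearest gene. The others in the span were 10.3-fold and 9.57-fold at one, and 6.73-fold and 5.24-fold at the other. The fourth, at 112201964 to 112203710, was 35.8-fold in list 1 (29.4 to 43.1) and 36.4-fold in list 2 (30.03 to 43.66). It lay 43.6 kb from Dkk3 and 22.7 kb from Mical2, a gene for an actin-oxidising enzyme, upstream of the Mical2 start.

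Sfrp2 had 2 shared sites upstream of its start at which it was the nearest gene, the stronger at 10.4-fold in list 1 (7.18 to 14.6) and 8.68-fold in list 2 (5.74 to 12.7). Sfrp5 had 1, at 12.7-fold (9.35 to 16.9) and 7.68-fold (5.19 to 10.99), with Zfyve27 nearer. Frzb, also a secreted frizzled-related protein, had a peak of 6.38-fold in list 2 alone and Dkk2 one of 3.99-fold in list 1 alone. Sfrp1, Dkk1 and Wif1 had none in either list. Dkk1 and Wif1 stood 232 and 140 kb from the nearest summit, measured from their starts.

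**Figure D3:**
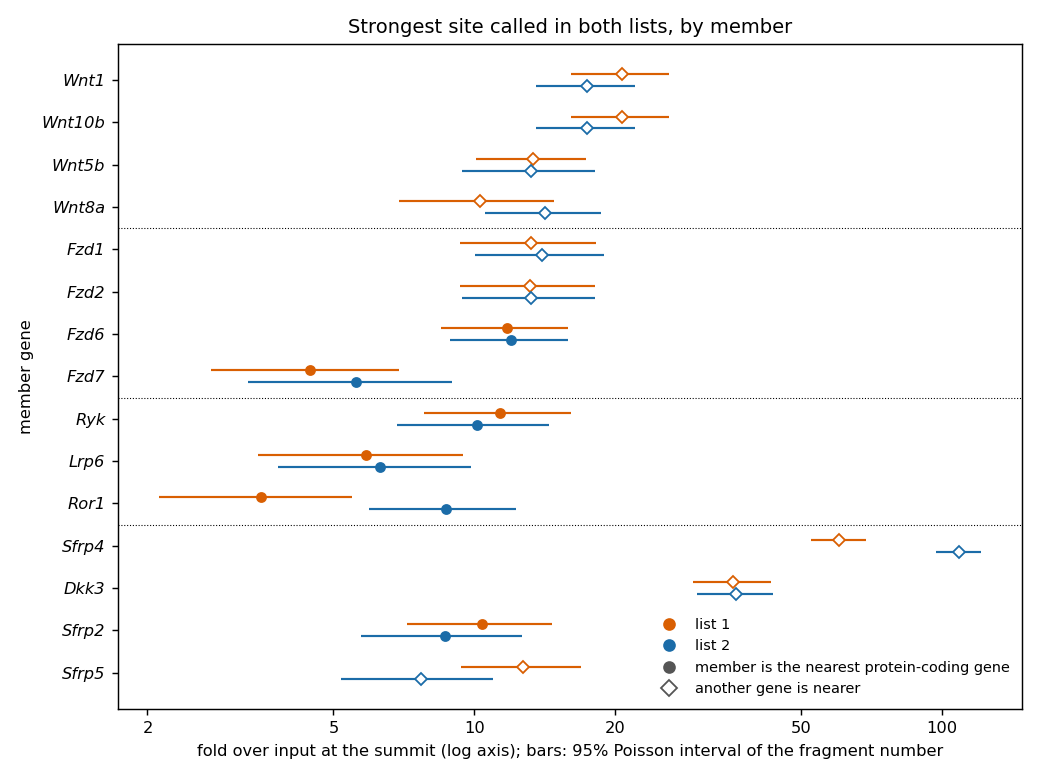
Fold over input (log axis) at the strongest site called in both lists, for up to 4 members of each class, with list 1 above list 2 and bars for the 95% Poisson interval of the fragment number. Open diamonds mark sites with another protein-coding gene nearer than the member; Sfrp4 (60.4-fold and 108.9-fold) and Dkk3 (35.8-fold and 36.4-fold) lead, and both have open diamonds.

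Shared sites of at least 10-fold in both lists were found for 10 members, or 23.8%, beside 20.3% of other protein-coding genes and 21.8% of genes of like span. These members were Wnt1, Wnt5b, Wnt8a, Wnt10b, Fzd1, Fzd2, Fzd6, Ryk, Sfrp4 and Dkk3. The share is near the background. They rested on 11 distinct sites, and a member was the nearest gene at 4 of those: the Wnt5b site inside the span, the Fzd6 site, the upstream Ryk site and the Dkk3 site inside the span.

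Peaks called in one list only were the weaker ones. In member windows the median fold was 8.81 for shared and 4.53 for unshared peaks of list 1, and 9.13 and 4.88 in list 2. No unshared peak exceeded 8.70-fold in list 1 or 9.07-fold in list 2. Of list 1 peaks in member windows 61.9% were shared (Wilson 95% interval 49.6 to 72.9), beside 70.9% of the whole list, and of list 2 peaks 70.2% (57.3 to 80.5), beside 71.4%. Both whole-list shares lay inside the intervals. The median peak here rested on 19 fragments in list 1 and 23 in list 2, against 19 and 22 in the whole lists.

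Over the 39 shared pairs in member windows the median log2 ratio of folds, list 1 over list 2, was -0.08 (SD 0.54 across pairs), and over all 15015 shared pairs it was -0.15 (SD 0.55). List 1 had the higher fold at 16 of the 39 and list 2 at 23. A ratio of at least 2 occurred at 0 pairs in favour of list 1 and at 2 in favour of list 2, the site below Wnt5b and the Ror1 site described above. The labels give no condition for either list, so these ratios have no biological direction.

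**Figure D4:**
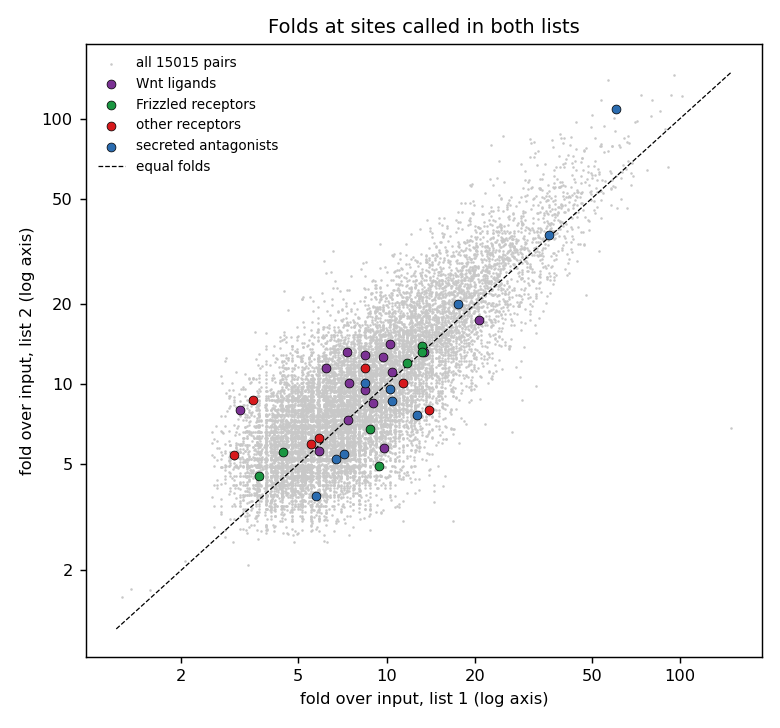
Fold over input in list 1 (x, log axis) against list 2 (y, log axis) at sites called in both lists, grey for all 15015 pairs and coloured for the 39 pairs in member windows, by class. The member pairs lie within the grey cloud, with the Sfrp4 window's site (60.4-fold and 108.9-fold) near its upper end.

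Other genes of the pathway were counted in the same way, beside the same 57.5% and 58.2% of other protein-coding genes. Span length was not matched for them, so their shares are not comparable with those of members beside genes of like span. Among other genes with spans below 10 kb 44.1% and 45.0% had a summit, and with spans of at least 100 kb 73.8% and 75.5%. Of 24 further extracellular and membrane regulators 15 had a summit in list 1 (62.5%) and 19 in list 2 (79.2%). The strongest shared sites were at Znrf3, a ubiquitin ligase that removes Frizzled receptors (21.2-fold and 37.6-fold, in the span), and Rspo2, an R-spondin that opposes it (20.1-fold and 35.9-fold, in the span). Lgr4, an R-spondin receptor, followed with 16.5-fold and 19.9-fold at a site nearer to Lin7c. Of 21 intracellular genes 15 (71.4%) and 17 (81.0%) had one, led by Dvl1 (53.3-fold and 53.6-fold, with Mxra8 nearer), Gsk3b (25.5-fold and 26.5-fold) and Tcf7l2 (17.6-fold and 26.8-fold, in the span). As the lists hold no expression values, the labelled cell type could not be checked by level. Of 8 cardiac fibroblast markers 7 had a summit in each list (87.5%), all but Tcf21, also without matching of span length. A summit near a gene does not give its level of expression.

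The limit of 50 kb cut through a run of sites. Between 40 and 50 kb from a member lay 8 pairings of a member with a peak in each list, with median folds of 8.94 in list 1 and 7.83 in list 2. The outermost was a Sfrp5 peak of list 2 at 48.5 kb (7.63-fold). Between 50 and 60 kb lay 10 in list 1 and 9 in list 2, with median folds of 7.22 and 9.42. The first outside was a Ryk site at 50.4 kb (11.3-fold and 9.42-fold), and the strongest was 15.3-fold in list 2 at 54.1 kb from Lrp6. At 51.8 kb from Fzd3 peaks of 11.02-fold in list 1 and 14.65-fold in list 2 were called. Inside the limit Fzd3 had a list 1 peak alone.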

How the data were processed

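The submitters' processing notes name Trimmomatic 0.33, Bowtie 1.1.2 and MACS2. No source used here states the MACS2 settings, removal of duplicates or pooling. The deposited lists give for each peak a fold (a ratio over input), −log10 p, −log10 q and a score that follows the −log10 q. The notes name mm39, but coordinates were read as GRCm38 and none was converted. The number of ChIP fragments at a summit and the background were solved from the authors' fold and −log10 p. The fold was taken as fragments plus 1 over background plus 1. Solved numbers were whole to within 0.02 in 99.99% of peaks of either list, and depth per library is otherwise unknown. The solution was checked on simulated data. The 95% interval of a fold follows from the exact Poisson interval of its fragments. An overlap of 1 bp or more made peaks shared, and pairs were each other's best overlap. Distances run to the ends of gene spans, or to starts where the promoter table lists them. Of the genes compared 269 lie on chromosome Y or MT, where no peak was listed.

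The members and gene lists were chosen with earlier results of these data known. The strongest shared sites of up to 4 members per class were given in full, ranked by the lower fold of both lists, and the other members by counts and strongest sites. No significance test was made, as 1 library stood behind each list. Alternatives changed the window, the peak threshold, the overlap rule, the span tolerance and the assignment to the nearest gene. Python 3.11.15 with numpy 2.4.6, pandas 2.3.3 and scipy 1.17.1 was used.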

Additional observations from a re-analysis of the deposited data

How the results depend on the processing

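The counts moved with the window and the peak threshold. With the gene span alone 8 members had a summit in list 1 (19.0%, beside 20.5% of other protein-coding genes), 7 in list 2 (16.7%, beside 20.5%) and 7 in both (beside 16.9%), from 15 and 18 peaks. Within 10 kb the numbers were 18 (42.9%, beside 33.3%), 14 (33.3%, beside 33.4%) and 14 (beside 27.6%), from 31 and 29 peaks, and 36.2% and 36.1% of genes of like span had one in list 1 and list 2. A window of 100 kb held 132 and 123 peaks. There 35 members had a summit in list 1 (83.3%, beside 70.0%), 36 in list 2 (85.7%, beside 71.1%) and 34 in both (81.0%, beside 66.0%). With the 5000 strongest peaks per list 12 had one in list 1 (28.6%, beside 23.9%), 13 in list 2 (31.0%, beside 24.1%) and 9 in both (21.4%, beside 20.2%), from 14 and 13 peaks. Where the member had to be the nearest protein-coding gene, 39 peaks of list 1 and 38 of list 2 remained. Under that rule 22 members had a summit in list 1, 19 in list 2 and 16 in both, with no share of other genes set beside them. Of peaks in member windows with −log10 q of at least 5, 77.8% in list 1 and 79.2% in list 2 were shared. No whole-list share at that threshold was set beside them. Of 44 alternatives 23 stayed within 1.5 times the count or within the interval of the value, among them both other span tolerances, both other overlap rules and both restrictions of the pairs. No paired analysis was possible because each group has 1 library and no test was made. Depth limits the weakest sites, which rest on 8 fragments in list 1 and 9 in list 2.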
